A study of Mus musculus with 16 samples.

Results

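Gene expression was compared between the kidneys of PT-2385-treated and vehicle-treated mice that had been stimulated to ovulate. The members were chosen by their labels alone: the 8 kidney libraries, 4 with PT-2385 and 4 with vehicle, of 16 libraries in the series. The other 8 libraries came from ovary and entered only the comparison of responses between organs at the end. All mice were wild-type females of the CBAF1 hybrid background, 21 days old. The treated group received PT-2385 at 7.5 mg/kg by intraperitoneal injection, and the control group received vehicle alone, 5% DMSO in saline, both at intervals of 12 h for 4 days. Both groups also carried the hormone treatment: 5 IU of PMSG for 48 h, a gonadotrophin that makes follicles grow, and then 5 IU of hCG, which triggers ovulation, for 13 h before the kidneys were taken. Whole kidney RNA was isolated with Trizol and sequenced with a stranded mRNA kit, so each value averages over every cell type of the organ. Whether each library stands for its own animal is not stated in the labels, and the p-values measure the spread between these samples, which may be technical. No untreated or unstimulated kidney was analysed here, so both groups share the hormones. The labels give the share of DMSO for the vehicle group only.

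Hypoxia-inducible factors are pairs of an oxygen-regulated alpha subunit and the stable partner ARNT, and they bind DNA at a short core sequence in their target genes. PT-2385 occupies a pocket of HIF-2α, the subunit encoded by Epas1, and blocks its pairing with ARNT. In kidney, HIF-2α is best known for driving erythropoietin in interstitial cells near the tubules. Most of the organ's mass, and most of the RNA, comes from tubule cells. The proximal tubule reabsorbs sugars, amino acids, phosphate, bicarbonate and filtered protein through a brush border rich in transporters and peptidases, and it runs largely on fatty acid oxidation in mitochondria and peroxisomes.

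Assigned read pairs per library ranged from 23285083 to 26951128 with vehicle and from 12689770 to 43295974 with PT-2385. The lowest was PT-2385 replicate 2. The highest was PT-2385 replicate 3, whose file name carries another code than those of the other kidney libraries. The labels do not say what this code stands for. Mitochondrial genes took 10.06% to 11.67% of read pairs with vehicle and 11.74% to 12.58% with PT-2385, without overlap. The first principal component of all genes tested, from −26.9 to −4.10 with vehicle and from 11.6 to 15.9 with PT-2385, separated the groups as well, and the second set PT-2385 replicate 2 (−31.5) apart. The libraries carried kidney markers, with Slc34a1, the phosphate transporter of the proximal tubule, between 3276 and 3992 counts per 1e6 read pairs (CPM, on library sizes scaled by TMM) and Umod, the uromodulin of the thick limb, between 1047 and 1737 CPM. The ovarian markers Foxl2 and Zp3 had 0 counts in all 8 libraries, which allows at most 3 counts in each. The other ovarian markers, Amh and Gdf9, had 2 to 11 and 1 to 8 counts per library. Cyp11b1, an enzyme of the adrenal cortex, was at 0 in 7 libraries and at 46 counts in vehicle replicate 2.

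In the 17763 genes compared, 982 (5.53%) had an adjusted p under 0.05 by the quasi-likelihood test of edgeR with Benjamini-Hochberg adjustment, which is what "called" means below. There were 325 genes higher with PT-2385 (1.83% of those tested) and 657 lower (3.7%). The changes were small. Among called genes the median log2 fold change was 0.30 on the higher side, a fold of 1.23, and −0.27 on the lower side. Only 22 of the higher and 54 of the lower genes changed by more than 1.5-fold. In 2354 genes (13.3%) the 4 PT-2385 libraries did not overlap the 4 vehicle libraries. The genes named below for the largest rises, largest falls and smallest p were chosen among genes without overlap. Their separation was thus fixed by the choice and is no further support. Falls were concentrated among abundant transcripts: over 100 CPM, 267 of 2026 genes (13.2%) were lower and 27 (1.33%) higher, whereas from 1 to 10 CPM 65 of 5006 were lower and 61 higher. The numbers of called list members given below are to be read beside these shares, since the lists were not matched for level. The genes that fell had a median exonic length of 3939 bases, against 2810 for those that rose and 2936 for all genes tested.

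**Figure D1:**
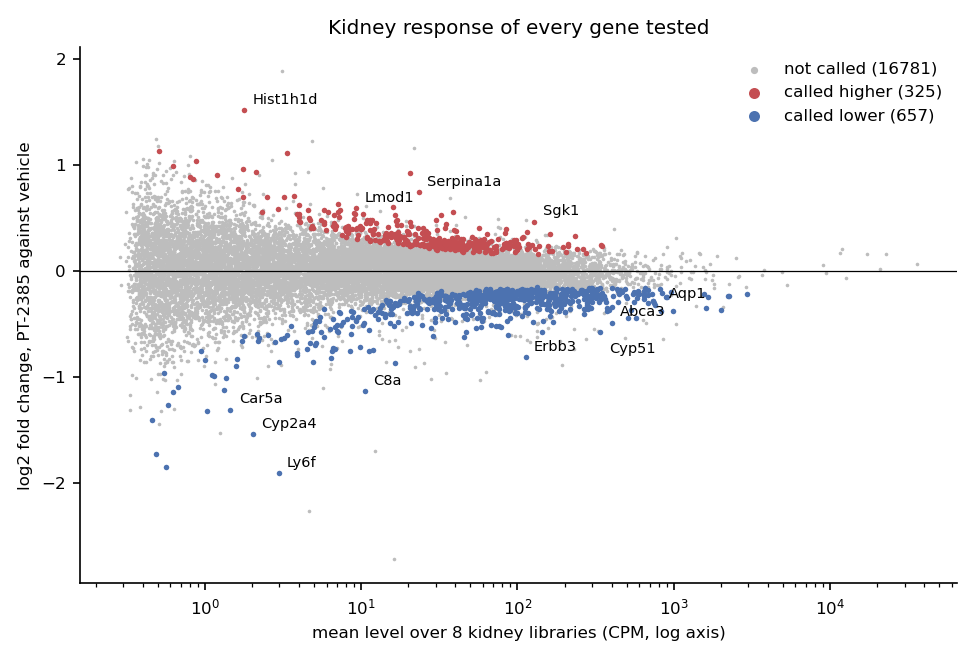
Each point is 1 of the 17763 genes tested, plotted by its mean level over the 8 kidney libraries (CPM, log axis) and its log2 fold change, PT-2385 against vehicle. The 657 genes called lower reach into the abundant transcripts on the right, while the 325 called higher thin out over 100 CPM.

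How many genes were called depended on single libraries. The number fell to 269 without vehicle replicate 2, 531 without PT-2385 replicate 1, 240 without PT-2385 replicate 3 and 287 without PT-2385 replicate 4. It was 1370 without vehicle replicate 3 and stayed between 920 and 1061 without each of the other 3. Without both PT-2385 replicates 2 and 3, the libraries of lowest depth and of the other file-name code, 211 genes were called, 185 of them shared with the full comparison. All 982 genes kept their direction in each of these fits. A core of 185 genes, 39 higher and 146 lower, was called in the full comparison and in all 8 fits that leave out 1 library, and such a call is said below to hold throughout. After the mitochondrial and haemoglobin genes were removed before scaling, 979 genes were called, 968 of them in common with the full comparison.

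HIF subunit transcripts stood at similar levels in both groups. Epas1 measured 185, 204, 189.8 and 201 CPM in the vehicle libraries and 185, 201, 204 and 198 CPM in the PT-2385 libraries, and the groups overlapped (log2 fold change 0.015, edgeR adjusted p = 0.893). Hif1a (0.03), Arnt (0.027) and Vegfa, the angiogenic growth factor (0.10), did not pass the test. Of 17 HIF pathway components tested, 1 was called, and it was lower. Cited2, which competes with the HIF alpha subunits for the coactivators CBP and p300, measured 103, 113, 96.1 and 85.5 CPM in the vehicle libraries and 83.4, 65.5, 75.6 and 79.8 CPM in the PT-2385 libraries. Its PT-2385 values all lay under the lowest vehicle value, by a small margin (−0.38, SE 0.0871, edgeR adjusted p = 0.0295; up to 0.101 without vehicle replicates 1, 2 or 3 or PT-2385 replicates 3 or 4). Since PT-2385 binds the protein, mRNA levels do not show how far HIF-2α was blocked.

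Genes preferred by HIF-2α went both ways. Of 24 tested, 1 rose and 2 fell, and the list's median log2 fold change was 0.051, against 0.0066 for all genes tested. Slc11a2, the transporter DMT1 that carries ferrous iron (chromosome 15, 100285779 to 100320936, GRCm39), measured 95.6, 100, 91.8 and 90.3 CPM in the vehicle libraries and 72.3, 83.2, 79.5 and 79.3 CPM in the PT-2385 libraries. Every PT-2385 library was below every vehicle library, and Slc11a2 fell to 0.831 of its vehicle level (−0.27, SE 0.0525, edgeR adjusted p = 0.0105), a call that held throughout. Ndrg1, a stress-responsive protein of epithelia, fell by 0.24 on the log2 scale, and Loxl2, a lysyl oxidase that cross-links collagen, rose by 0.20 (edgeR adjusted p = 0.0323 and 0.0485). Both lost their call without single libraries (adjusted p up to 0.137 without vehicle replicates 1, 2 or 3 or PT-2385 replicates 1, 2, 3 or 4). Igfbp1, a binding protein of insulin-like growth factors, had the lowest value of the list and is named after its values were seen. It measured 9.07, 26.5, 16.5 and 20.1 CPM in the vehicle libraries and 4.80, 12.9, 3.89 and 3.59 CPM in the PT-2385 libraries, with PT-2385 replicate 2 inside the vehicle range, and did not pass the test (−1.70, edgeR adjusted p = 0.12). Epo itself, which encodes erythropoietin, was too rare for the test. Its counts were 3, 2, 0 and 2 in the vehicle libraries and 8, 1, 19 and 17 in the PT-2385 libraries. PT-2385 replicate 2, the shallowest library, lay within the vehicle range and the other 3 above it, and the group means were 0.0659 ± 0.0477 CPM (vehicle) and 0.373 ± 0.231 CPM (PT-2385; mean ± SD, n = 4, two-sided exact permutation p = 0.0571, where 0.0286 is the smallest p that 4 against 4 allows). Without PT-2385 replicate 2 the difference was 0.406 CPM, against 0.308 CPM with it, and the exact permutation p was 0.0286. Leaving out the library inside the vehicle range fixed this p at its lowest possible value, so it is no further test. With any other library left out the exact permutation p was 0.0571 to 0.0857.

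Of 31 HIF-1 and glycolysis targets, 0 rose and 3 fell, with a median of 0.011. Of all genes tested 3.7% were called lower, and of those over 100 CPM 13.2%. The members that fell were Bnip3 and Bnip3l, receptors for the removal of mitochondria by autophagy, and Pgk1, a glycolytic enzyme. Bnip3 measured 72.4, 66.5, 59.7 and 59.1 CPM in the vehicle libraries and 55.5, 55.97, 51.8 and 51.9 CPM in the PT-2385 libraries, and Pgk1 362, 357, 358 and 354 CPM in the vehicle libraries and 312, 336, 314 and 322 CPM in the PT-2385 libraries. In both the groups did not overlap, although the highest PT-2385 value of Bnip3 came within a few CPM of the lowest vehicle value. The log2 fold changes were −0.26 (SE 0.064), −0.20 and −0.16, with edgeR adjusted p of 0.0271, 0.029 and 0.0455. None of these calls held throughout (adjusted p up to 0.155, with losses without every library but 1 for Pgk1, and without vehicle replicate 2 or PT-2385 replicates 3 or 4 for each). Bnip3 shares 27.2% of its exon bases with a gene model on the opposite strand, whose reads the counting could not separate.

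The start regions of Bnip3 and Pgk1 are shown because they hold the HIF core and belong to called members of this list. Each run is the 250 bases before the RefSeq start in the build GRCm38.p6, at chr7:138909507-138909756 on the minus strand and chrX:106186850-106187099 on the plus strand, read 5′ to 3′ along the gene. Capitals mark ACGTG or GCGTG on either strand.
Bnip3: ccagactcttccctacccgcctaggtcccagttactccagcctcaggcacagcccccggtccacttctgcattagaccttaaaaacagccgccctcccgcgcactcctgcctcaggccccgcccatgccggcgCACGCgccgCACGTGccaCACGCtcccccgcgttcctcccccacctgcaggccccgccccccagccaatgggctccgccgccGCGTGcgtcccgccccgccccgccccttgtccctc
Pgk1: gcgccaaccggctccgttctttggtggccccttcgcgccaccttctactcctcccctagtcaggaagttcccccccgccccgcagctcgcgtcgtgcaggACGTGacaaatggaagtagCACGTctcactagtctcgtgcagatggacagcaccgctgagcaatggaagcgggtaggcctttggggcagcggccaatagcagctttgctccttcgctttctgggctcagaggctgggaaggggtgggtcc
Bnip3 has 5 matches, of which 2 overlap in a palindrome, and Pgk1 has 2. Among 12216 tested genes with a RefSeq start region, 20.7% hold ACGTG and 42.7% hold GCGTG in this window. Of the genes called lower the shares were 21% and 46.5% (510 regions), and of those called higher 20.6% and 39.5% (243 regions). For the HIF-1 and glycolysis list they were 44.8% and 55.2% of 29 regions. These are matches of letters only.

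Of 28 proximal tubule markers tested, 11 fell with PT-2385 and 0 rose, with a median log2 fold change of −0.24 and 23 negative values. Slc5a1, the glucose transporter SGLT1 of the late tubule (chromosome 5, 33261563 to 33320214, GRCm39), measured 122, 117, 104 and 105 CPM in the vehicle libraries and 85.05, 89.5, 85.1 and 82.4 CPM in the PT-2385 libraries. All PT-2385 libraries lay under all vehicle libraries, at 0.762 of the vehicle level (−0.39, SE 0.0551, edgeR adjusted p = 0.00234). Aqp1, the water channel aquaporin-1 (chromosome 6, 55313417 to 55325540), measured 1015, 999, 856 and 863 CPM in the vehicle libraries and 707, 744, 713 and 717 CPM in the PT-2385 libraries. The vehicle libraries split into a higher pair, replicates 1 and 2, and a lower pair, and every PT-2385 library was below both (−0.37, SE 0.0587, edgeR adjusted p = 0.00416). Fbp1, a gluconeogenic enzyme, and Ggt1, which starts the breakdown of glutathione at the luminal membrane, fell by 0.30 and 0.28 on the log2 scale (edgeR adjusted p = 0.00486 and 0.00793). These 4 calls held throughout. The list's called members numbered 6 without PT-2385 replicate 3, 7 without PT-2385 replicate 4 and 8 to 12 without each of the others. In bulk RNA, fewer cells of a type and less RNA per cell cannot be told apart.

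The segment's defining markers did not move alike. Slc34a1, the main phosphate transporter, went from 3724 ± 302 to 3621 ± 238 CPM (mean ± SD, n = 4, log2 fold change −0.041). Kap, an androgen-regulated protein, went from 12877 ± 1002 to 12343 ± 1198 CPM (−0.061). Slc5a2, the glucose transporter SGLT2 of the early tubule, measured 264, 265, 334 and 305 CPM in the vehicle libraries and 265, 332, 358 and 372 CPM in the PT-2385 libraries, a log2 fold change of 0.19, and the groups overlapped. None of these 3 passed the test (edgeR adjusted p = 0.754, 0.661 and 0.385). Lrp2, the endocytic receptor megalin, measured 2705, 2516, 2027 and 2021 CPM in the vehicle libraries and 1689.8, 1959.7, 1817 and 1873 CPM in the PT-2385 libraries, without overlap but short of the threshold (−0.34, edgeR adjusted p = 0.0554). Its partner Cubn, cubilin, chosen here after its values were seen, fell by 0.44 on the log2 scale (edgeR adjusted p = 0.0288). The summed level of all 28 markers was 55570 to 62900 CPM in vehicle libraries and 54170 to 56620 CPM in PT-2385 libraries.

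In a list of 22 brush border proteins, put together after the values had been seen, 9 fell and 0 rose (median −0.27; called members 5 without vehicle replicate 2, 14 without vehicle replicate 4, 5 without PT-2385 replicate 1, 5 without PT-2385 replicate 3, 5 without PT-2385 replicate 4 and 8 to 12 without each of the others). The highest log2 fold change in the list was 0.031. It did not hold Slc34a3, a brush border transporter called higher, or Slc5a2, which had a positive value and was not called. The count of 0 rises therefore describes the chosen members only. Pdzk1, the scaffold that anchors transporters under the brush border, measured 631, 623, 602 and 551 CPM in the vehicle libraries and 428, 476, 468 and 495 CPM in the PT-2385 libraries, with all PT-2385 libraries below all vehicle libraries (−0.37, SE 0.0559, edgeR adjusted p = 0.00406). Pdzk1 shares 47.6% of its exon bases with other gene models, most of them with Gpr89 on the opposite strand. Anpep, aminopeptidase N, and Treh, the disaccharidase trehalase, fell by 0.26 and 0.38 (edgeR adjusted p = 0.00775 and 0.00867). Of 321 genes with solute carrier symbols, 43 were lower and 5 higher (calls numbered 25 without vehicle replicate 2, 25 without PT-2385 replicate 3, 22 without PT-2385 replicate 4 and 36 to 57 without each of the others). The 5, chosen after their values were seen, were Slc34a3, Slc16a5, Slc9a3r2 and Slc4a3, with log2 fold changes from 0.21 to 0.53, and the pseudogene Slc2a4rg-ps. Slc2a5, the fructose transporter GLUT5 (chromosome 4, 150203740 to 150228626, GRCm39), was among the genes of smallest p and measured 121, 121, 123 and 123 CPM in the vehicle libraries and 86.6, 97.6, 95.6 and 85.2 CPM in the PT-2385 libraries. Its vehicle values were nearly identical, and PT-2385 brought it to 0.747 of that level (−0.42, SE 0.0507, edgeR adjusted p = 0.00114). Slc17a1, an organic anion and phosphate carrier, and Slc16a4, a monocarboxylate carrier, fell by 0.29 and 0.32. These 6 falls held throughout.

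Of 31 organic ion and ABC transporters, which carry drugs and metabolites across the tubule, 7 fell and 0 rose (median −0.20; called members 3 without vehicle replicate 2, 12 without PT-2385 replicate 2, 4 without PT-2385 replicate 3, 2 without PT-2385 replicate 4 and 5 to 9 without each of the others). Slc22a2, the organic cation transporter OCT2, measured 307, 307, 295 and 315 CPM in the vehicle libraries and 267, 264, 250.5 and 215 CPM in the PT-2385 libraries, and Slco3a1, an organic anion carrier, 90.7, 86.2, 80.3 and 76.98 CPM in the vehicle libraries and 67.8, 73.6, 60.97 and 64.02 CPM in the PT-2385 libraries. Both groups were separate in each, by log2 fold changes of −0.30 and −0.33 (edgeR adjusted p = 0.0117 and 0.00902), and both calls held throughout. Abcc2, the exporter MRP2, and Slco4c1, a basolateral organic anion carrier, fell by 0.40 and 0.40 (edgeR adjusted p = 0.0156 and 0.0176) and each lost its call without 1 or more of vehicle replicate 2 or PT-2385 replicates 3 or 4 (adjusted p up to 0.0711).

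**Figure D2:**
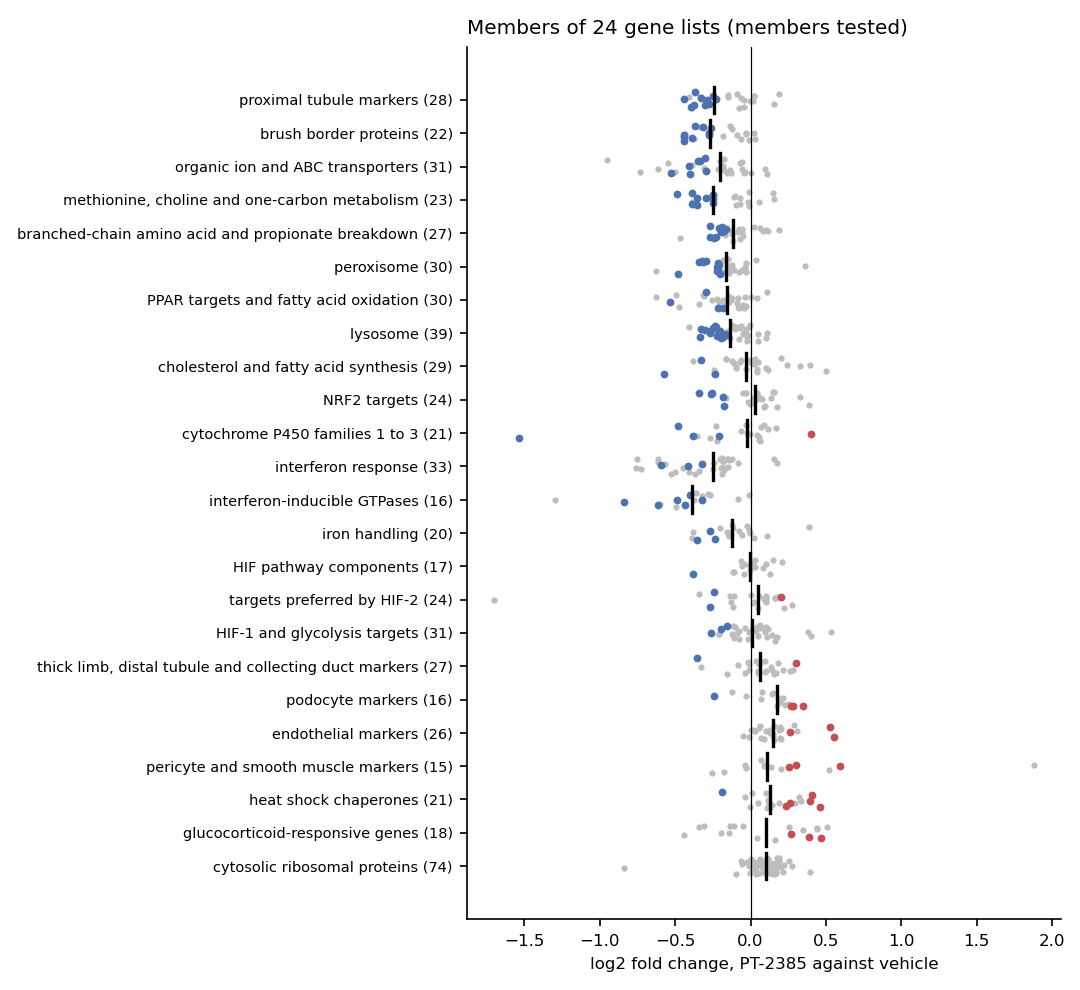
Each point is a member of 1 of 24 gene lists, placed by its log2 fold change, PT-2385 against vehicle (blue, called lower; red, called higher; grey, not called), and black bars mark the list medians; the number of members tested is in parentheses. Blue points gather in the lists of the proximal tubule, its metabolism and the interferon-inducible GTPases, and red points in those of podocytes, vessels and heat shock chaperones. Put together after the values had been seen were the brush border, methionine, branched-chain, peroxisome, lysosome, GTPase and ribosomal protein lists. The blue points of these lists are no test of the pattern.

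In a list of 23 enzymes of methionine, choline and sulphur amino acid metabolism, also put together after the values had been seen, 10 fell and 0 rose (median −0.25; called members 8 to 11 whichever library was left out). Sardh, the mitochondrial enzyme that turns sarcosine into glycine, measured 319, 305, 292 and 278 CPM in the vehicle libraries and 229, 244, 232 and 228 CPM in the PT-2385 libraries, with every PT-2385 library under every vehicle library (−0.36, SE 0.0498, edgeR adjusted p = 0.00227). Ahcy, which clears S-adenosylhomocysteine, Bhmt2, a methyltransferase that makes methionine, and Cth, the last enzyme of the route to cysteine, fell by 0.36, 0.39 and 0.30 (edgeR adjusted p = 0.00406, 0.00467 and 0.00486). Pdxk, the kinase that makes pyridoxal phosphate, the cofactor of several of these enzymes, measured 95.03, 86.6, 80.5 and 81.4 CPM in the vehicle libraries and 55.3, 63.5, 59.1 and 62.9 CPM in the PT-2385 libraries. It fell to 0.7 of the vehicle level (−0.52, SE 0.0611, edgeR adjusted p = 0.00114), with no overlap. 41.1% of the Pdxk exon bases lie under a gene model on the opposite strand. In the added list of 27 genes for the breakdown of branched-chain amino acids and propionate, 9 fell and 0 rose (median −0.12), among them Mccc2, a subunit of the leucine pathway carboxylase (−0.27), and Aldh6a1, of the valine pathway (−0.23). The 7 genes named here kept their calls throughout, while the calls in the list of 27 numbered 5 without vehicle replicate 1, 3 without vehicle replicate 2, 5 without PT-2385 replicate 1, 2 without PT-2385 replicate 3, 2 without PT-2385 replicate 4 and 8 without each of the others.

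Of 30 peroxisome genes in a list added after the values had been seen, 12 fell and 0 rose (median −0.16). Acox2, an acyl-CoA oxidase for branched chains (chromosome 14, 14210420 to 14244262, GRCm39), measured 209.8, 215, 175 and 180.1 CPM in the vehicle libraries and 133, 142, 144 and 141 CPM in the PT-2385 libraries. Vehicle replicates 1 and 2 were again the highest, and all PT-2385 libraries lay below the group (−0.48, SE 0.0634, edgeR adjusted p = 0.0019). Eci3, a peroxisomal enoyl-CoA isomerase, fell by 0.32, and Acad10, an acyl-CoA dehydrogenase family member outside the list, by 0.53 (edgeR adjusted p = 0.00486 and 0.00139). Of 30 PPAR targets and fatty acid oxidation genes, 4 fell and 0 rose (median −0.16). They included Ppara itself, the nuclear receptor of that programme, at 36.5, 35.3, 28.1 and 31.7 CPM in the vehicle libraries and 22.4, 26.3, 21.01 and 22.3 CPM in the PT-2385 libraries, where the groups did not overlap (−0.53, SE 0.0846, edgeR adjusted p = 0.00467). Acot3 (−0.30), a peroxisomal thioesterase, was another, as was Cyp4a31 (−0.19), a fatty acid hydroxylase with close paralogs. Acox2, Eci3, Acad10 and Ppara held throughout; Acot3 and Cyp4a31 lost their calls without at least 1 of vehicle replicate 2 or PT-2385 replicates 3 or 4 (adjusted p up to 0.128). The peroxisome list's calls numbered 3 without vehicle replicate 2, 3 without PT-2385 replicate 3, 4 without PT-2385 replicate 4 and 9 to 11 without each of the others. Those of the PPAR list numbered 2 without vehicle replicate 2, 2 without PT-2385 replicate 3, 1 without PT-2385 replicate 4 and 4 to 5 without each of the others.

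Of 39 lysosomal genes, in a list added after the values had been seen, 17 fell and 0 rose (median −0.13). Arsb, an arylsulfatase that trims glycosaminoglycans, measured 107, 106, 111 and 109 CPM in the vehicle libraries and 86.1, 85.6, 84.4 and 89.9 CPM in the PT-2385 libraries. The spread within either group was a few CPM and the gap between them wide (−0.33, SE 0.0439, edgeR adjusted p = 0.0019). Galc, galactosylceramidase, and Gm2a, the activator of ganglioside breakdown, fell by 0.34 and 0.23 (edgeR adjusted p = 0.00486 and 0.0103). These 3 held throughout, but the list's calls numbered 6 without vehicle replicate 2, 10 without PT-2385 replicate 1, 3 without PT-2385 replicate 3, 5 without PT-2385 replicate 4 and 12 to 18 without each of the others, and 2 without both PT-2385 replicates 2 and 3. The letters CACGTG, the core of the sites that the lysosomal regulator TFEB binds, stood in 26.7% of 30 start regions of the list and in 8.05% of those of all tested genes. Among genes called lower the share was 8.82%, and among those called higher 9.88%. These too are matches of letters only, and a part of TFEB in the falls was not tested.

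Cholesterol synthesis gave the gene of smallest p. Cyp51, lanosterol 14α-demethylase (chromosome 5, 4131145 to 4154746, GRCm39), measured 462, 405, 377 and 378 CPM in the vehicle libraries and 269, 289, 264 and 269 CPM in the PT-2385 libraries. It fell to 0.673 of its vehicle level, with a wide gap between the groups (−0.57, SE 0.0615, edgeR adjusted p = 0.00114). The call held throughout. Sqle, squalene epoxidase, fell by 0.23 (edgeR adjusted p = 0.0289), a call lost without vehicle replicate 2 or PT-2385 replicates 1 or 3. Of the whole list, 3 of 29 fell and 0 rose, and the median was −0.029. Further genes of small p were Abca3, a lipid transporter of the ABC family (469.5 ± 31.4 to 335 ± 22.3 CPM, −0.49), Ipmk, a kinase of inositol phosphates (99.1 ± 4.58 to 71.8 ± 5.77 CPM, −0.47), and Serpinf2, the plasmin inhibitor α2-antiplasmin (168 ± 13.1 to 122 ± 6.77 CPM, −0.47; mean ± SD, n = 4). Their edgeR adjusted p were 0.00114, 0.00128 and 0.00128, and each held throughout.

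Among enzymes of drug metabolism a few members fell. Of 21 cytochrome P450 genes of families 1 to 3, 1 rose and 4 fell (median −0.022). Cyp2a4, a steroid hydroxylase (chromosome 7, 26006594 to 26014513, GRCm39), had one of the largest falls and measured 2.97, 3.69, 2.58 and 2.86 CPM in the vehicle libraries and 0.865, 1.18, 1.33 and 0.748 CPM in the PT-2385 libraries. The lowest vehicle library stood well above the highest PT-2385 library (0.345 of vehicle, −1.53, SE 0.2, edgeR adjusted p = 0.00175). Its near-identical copy Cyp2a5 had a log2 fold change of −0.27 (edgeR adjusted p = 0.0502), and reads of the pair cannot be fully told apart. Cyp2j11 (−0.48) and Cyp2j5 (−0.21), epoxygenases of arachidonic acid from a family of close copies, and Cyp2d12 (−0.38), named after its values were seen, also fell, and Cyp2u1, a fatty acid hydroxylase, rose (0.40; edgeR adjusted p = 0.0266). Of 30 conjugation enzymes, Ugt3a2 and Ugt1a7c fell, by 0.30 and 0.30, and Sult1a1, a sulfotransferase, rose (0.27); the Ugt1a isoforms share exons, 54.6% of the exon bases for Ugt1a7c. Of 24 targets of NRF2, the regulator of antioxidant genes, 5 fell and 0 rose, although the list's median was 0.029 (calls numbered 2 without vehicle replicate 1, 2 without vehicle replicate 2, 3 without PT-2385 replicate 1, 2 without PT-2385 replicate 3, 2 without PT-2385 replicate 4 and 4 to 5 without each of the others). Ugdh, which makes UDP-glucuronate, and Gsr, glutathione reductase, fell by 0.34 and 0.26 (edgeR adjusted p = 0.00406 and 0.00498), Txnrd1 and Gclm, of thioredoxin and glutathione metabolism, by 0.18 and 0.17, and Me1, malic enzyme, named after its values were seen, by 0.26. Cyp2a4, Cyp2j11, Ugdh and Gsr held throughout, and Cyp2j5, Cyp2d12, Cyp2u1, Ugt3a2, Ugt1a7c, Sult1a1, Txnrd1, Gclm and Me1 lost their calls without at least 1 of vehicle replicates 1, 2, 3 or 4 or PT-2385 replicates 1, 2, 3 or 4 (adjusted p up to 0.14).

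Interferon-inducible genes answer interferons through response elements that bind the STAT and IRF factors. Of 33 such genes in the interferon response list, 3 fell and 0 rose, while 31 had negative values (median −0.25). The summed level of the list overlapped between the groups, at 475 to 646 CPM in vehicle and 458 to 526 CPM in PT-2385 libraries, and its median distance from the vehicle mean was lower in vehicle replicate 2 (−0.26) than in PT-2385 replicates 2 and 4 (−0.19 and −0.14). Ifih1, the sensor MDA5, measured 21.1, 17.4, 17.8 and 18.8 CPM in the vehicle libraries and 14.3, 15.6, 14.6 and 15.6 CPM in the PT-2385 libraries, without overlap (−0.32, SE 0.0749, edgeR adjusted p = 0.0221). Ifit3b fell by 0.42 (edgeR adjusted p = 0.0264), but its near-identical copy Ifit3 had a log2 fold change of −0.19, so the split of reads between them is uncertain. Ifit1, which binds foreign RNA, measured 10.7, 6.70, 10.98 and 12.9 CPM in the vehicle libraries and 6.53, 6.59, 7.03 and 7.07 CPM in the PT-2385 libraries. Vehicle replicate 2 lay within the PT-2385 range, and the call was marginal (−0.59, SE 0.159, edgeR adjusted p = 0.0493). Irf7, the factor that amplifies interferon output, measured 24.3, 18.8, 27.6 and 33.1 CPM in the vehicle libraries and 13.4, 15.3, 14.4 and 18.5 CPM in the PT-2385 libraries, without overlap, at an edgeR adjusted p of 0.0504 (−0.75). The 3 calls were lost without at least 1 of vehicle replicates 1, 3 or 4 or PT-2385 replicates 1, 2, 3 or 4 (adjusted p up to 0.135), and the list's calls numbered 7 without vehicle replicate 2, 0 without PT-2385 replicate 1, 0 without PT-2385 replicate 3, 1 without PT-2385 replicate 4 and 2 to 3 without each of the others.

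The interferon-inducible GTPases, which attack the vacuoles of intracellular parasites, formed the added list with the lowest median (−0.39). All 16 members tested had negative values and 6 fell, in a list put together after the values had been seen; the calls numbered 2 without PT-2385 replicate 1, 3 without PT-2385 replicate 3, 2 without PT-2385 replicate 4 and 4 to 6 without each of the others. Irgm2, a regulator of this family, measured 27.2, 21.3, 24.02 and 24.02 CPM in the vehicle libraries and 16.2, 18.2, 16.9 and 17.7 CPM in the PT-2385 libraries, with the groups separate (−0.49, SE 0.0759, edgeR adjusted p = 0.00406). Gbp3, a guanylate-binding protein, measured 42.6, 30.7, 31.1 and 34.97 CPM in the vehicle libraries and 25.1, 22.4, 19.6 and 24.3 CPM in the PT-2385 libraries, and no PT-2385 library reached the lowest vehicle library (−0.61, SE 0.11, edgeR adjusted p = 0.0117). Both held throughout. Gbp4 and Gbp7 fell by 0.44 and 0.40 (edgeR adjusted p = 0.029 and 0.0305) and lost their calls without at least 1 of vehicle replicate 2 or PT-2385 replicates 1, 3 or 4. The guanylate-binding proteins include close copies, among which reads may be shared. Macrophage markers, cells rich in such transcripts, stood at 156 to 177 CPM in sum in vehicle libraries and 136 to 157 CPM in PT-2385 libraries, and of 18 tested 1 fell, Csf1r, the receptor of the macrophage growth factor (−0.27; edgeR adjusted p = 0.0251, lost without vehicle replicate 2 or PT-2385 replicates 2 or 4). The part of these cells in the falls was not tested.

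Start regions of Irgm2, Gbp7 and Ifit1 are shown because they carry the interferon-stimulated response element that many members of both lists share. Capitals mark GAAA, any 2 bases and GAAA again, on either strand, in the 250 bases before the RefSeq start (GRCm38.p6, all on the plus strand) at chr11:58214727-58214976, chr3:142530086-142530335 and chr19:34640639-34640888.
Irgm2: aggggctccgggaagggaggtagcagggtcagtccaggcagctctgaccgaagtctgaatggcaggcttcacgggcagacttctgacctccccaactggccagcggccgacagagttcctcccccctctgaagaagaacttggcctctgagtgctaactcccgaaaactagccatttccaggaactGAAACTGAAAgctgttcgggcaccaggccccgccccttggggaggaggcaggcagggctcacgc
Gbp7: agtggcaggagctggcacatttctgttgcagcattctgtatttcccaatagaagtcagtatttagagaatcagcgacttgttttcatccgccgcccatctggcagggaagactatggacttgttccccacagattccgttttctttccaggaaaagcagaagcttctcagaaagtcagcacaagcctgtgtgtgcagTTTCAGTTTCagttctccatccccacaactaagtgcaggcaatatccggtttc
Ifit1: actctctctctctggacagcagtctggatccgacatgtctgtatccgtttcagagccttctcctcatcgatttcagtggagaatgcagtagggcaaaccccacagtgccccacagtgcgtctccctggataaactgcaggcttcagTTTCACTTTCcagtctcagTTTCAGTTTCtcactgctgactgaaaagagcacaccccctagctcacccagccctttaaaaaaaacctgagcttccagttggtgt
Irgm2 and Gbp7 hold 1 match each and Ifit1 holds 2. The motif stood in 9 of 10 GTPase start regions given by RefSeq (90%) and in 11 of 23 of the interferon response list (47.8%). Among all tested genes the share was 2.68%, and among genes called lower it was 3.33%. Again these are matches of letters only.

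**Figure D3:**
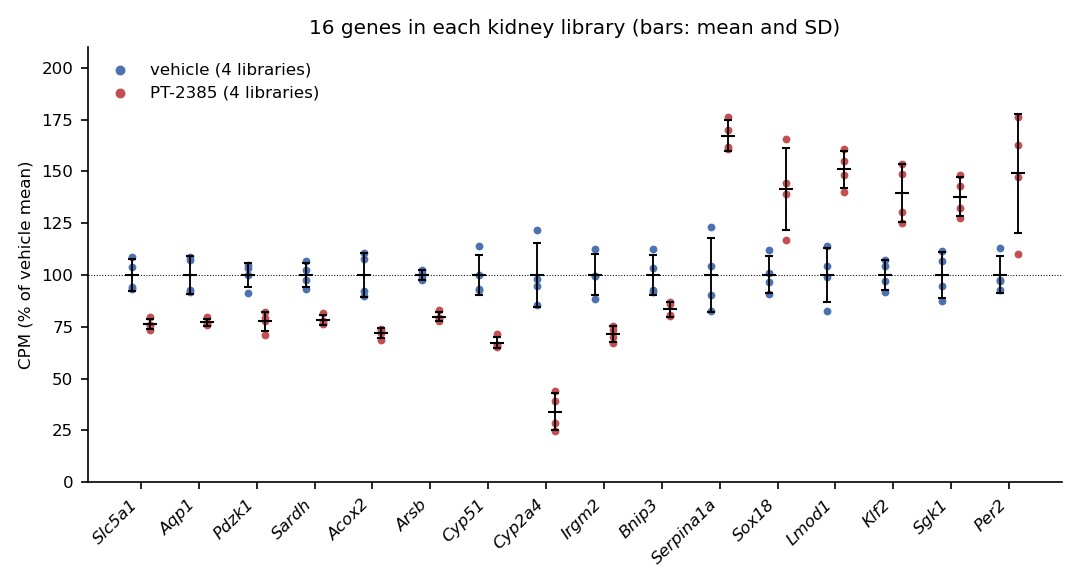
Dots give the CPM of 16 genes in each kidney library as percent of the gene's vehicle mean (4 vehicle and 4 PT-2385 libraries), with bars for mean and SD. From Slc5a1 to Bnip3 the PT-2385 libraries lie under the vehicle libraries, Cyp2a4 lowest, and from Serpina1a to Sgk1 they lie above; Per2 overlaps.

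Several of the largest falls were in genes of low level. Ly6f, a GPI-anchored protein of a family of close copies, measured 7.85, 4.77, 2.84 and 2.90 CPM in the vehicle libraries and 0.865, 2.12, 1.03 and 1.31 CPM in the PT-2385 libraries, and vehicle replicate 1 stood high (−1.90, SE 0.415, edgeR adjusted p = 0.0386). Car5a, a mitochondrial carbonic anhydrase, and C8a, a chain of complement C8, fell by 1.30 and 1.13, both from vehicle groups that spread widely: C8a measured 18.9, 17.99, 10.98 and 10.8 CPM in the vehicle libraries and 5.75, 5.65, 7.97 and 6.84 CPM in the PT-2385 libraries. Another gene model overlaps 25.1% of the Car5a exon bases. Vehicle replicates 1 and 2 were the high pair in C8a, and PT-2385 libraries lay under all of them (edgeR adjusted p = 0.0155 and 0.0297). Erbb3, a receptor of neuregulins and the most abundant gene among the 12 largest falls, measured 122, 162, 148 and 141 CPM in the vehicle libraries and 74.3, 107, 78.3 and 70.1 CPM in the PT-2385 libraries, with separate groups (−0.81, SE 0.148, edgeR adjusted p = 0.0271). Nkain1, which binds the sodium pump, and A4gnt, a glycosyltransferase of mucins, fell by 0.82 and 0.76. Mfrp (−0.86), which shares 31.8% of its exon bases with an overlapping gene, Kcng1 (−0.85), a potassium channel subunit, Chst7 (−0.79), a sulfotransferase, Spidr (−0.75), a DNA repair scaffold, and Ido2 (−0.73), a tryptophan-degrading enzyme, completed the set. Nkain1, A4gnt, Mfrp and Chst7 held throughout. The others lost their calls without at least 1 of vehicle replicates 2, 3 or 4 or PT-2385 replicates 1, 2, 3 or 4 (adjusted p up to 0.15).

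Of 20 iron handling genes, 3 fell, Slc11a2 above and 2 more. These were Aco1, the iron regulatory protein IRP1, at 445, 453, 445 and 435 CPM in the vehicle libraries and 361, 392, 379 and 377 CPM in the PT-2385 libraries, and Steap3, a ferric reductase (−0.36, edgeR adjusted p = 0.0103); 0 rose. The Aco1 groups did not overlap (−0.24, SE 0.0438, edgeR adjusted p = 0.00792), and both calls held throughout. Ace, which makes angiotensin II, measured 189, 161, 123 and 119 CPM in the vehicle libraries and 91.4, 98.6, 93.8 and 87.96 CPM in the PT-2385 libraries. No PT-2385 library reached the vehicle range, but vehicle replicates 1 and 2 lay far above replicates 3 and 4, and the edgeR adjusted p was 0.0551 (−0.67). Among phosphate and calcium genes Slc20a2, the phosphate transporter PiT-2, and Pth1r, the parathyroid hormone receptor, fell by 0.40 and 0.19, while Slc34a3, the brush border transporter NaPi-IIc, rose by 0.35 (edgeR adjusted p = 0.00471, 0.0219 and 0.0273). Slc20a2 held throughout; Pth1r and Slc34a3 lost their calls without at least 1 of vehicle replicates 1, 2 or 4 or PT-2385 replicates 1, 2, 3 or 4 (adjusted p up to 0.0934).

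Genes that rose had a median level of 26.7 CPM, against 77.1 CPM for those that fell. Hist1h1d, a linker histone, had the largest rise among those named and measured 0.876, 0.968, 0.875 and 1.09 CPM in the vehicle libraries and 2.68, 1.18, 2.47 and 4.15 CPM in the PT-2385 libraries. PT-2385 replicate 2 lay only just above the vehicle range (1.51, SE 0.278, edgeR adjusted p = 0.00902). Serpina1a, an α1-antitrypsin (chromosome 12, 103819848 to 103829814, GRCm39), measured 14.4, 21.5, 15.7 and 18.2 CPM in the vehicle libraries and 28.2, 28.02, 30.7 and 29.6 CPM in the PT-2385 libraries. All PT-2385 libraries stood clear of the vehicle libraries, 1.67-fold higher in the fit (0.74, SE 0.0994, edgeR adjusted p = 0.00257), though its near-identical copies share reads. Prkag3, a subunit of AMP-activated kinase (0.70), Nr2e3, a nuclear receptor (0.94), Adam11 (0.64), Pik3r6, a regulatory subunit of PI3 kinase γ (0.62), Clec18a, a lectin (0.59), Igf2bp1, an RNA-binding protein (0.58), Ttll3, a tubulin glycylase (0.58), and Iffo1 (0.55) followed. Hist1h1d, Serpina1a, Adam11 and Igf2bp1 held throughout. The other 6 lost their calls without at least 1 of vehicle replicates 1, 2 or 4 or PT-2385 replicates 1, 3 or 4 (adjusted p up to 0.132).

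Of 26 endothelial markers, 3 rose and 0 fell, with 24 positive values (median 0.15). Sox18, a transcription factor of vessels, measured 12.4, 13.2, 15.3 and 13.8 CPM in the vehicle libraries and 19.1, 16.01, 22.7 and 19.8 CPM in the PT-2385 libraries, and its relative Sox7 4.76, 5.55, 4.94 and 4.78 CPM in the vehicle libraries and 6.87, 6.44, 8.20 and 7.52 CPM in the PT-2385 libraries. In both the groups were separate (0.52 and 0.55, SE 0.0949 and 0.109, edgeR adjusted p = 0.00702 and 0.0104). Cldn5, a tight junction protein of endothelium, rose by 0.26 (edgeR adjusted p = 0.0357). Klf2, the flow-responsive factor of endothelium, which stood in the list of immediate early genes, measured 24.3, 26.9, 26.2 and 22.96 CPM in the vehicle libraries and 38.5, 32.7, 37.3 and 31.4 CPM in the PT-2385 libraries, a clear separation (0.49, SE 0.0743, edgeR adjusted p = 0.00406). The defining endothelial markers were nearer to level: Pecam1 was at 87.5 ± 3.99 to 88.4 ± 3.68 CPM, and Cdh5 at 71.7 ± 4.31 to 78.3 ± 3.06 CPM (mean ± SD, n = 4). Sox18 and Klf2 held throughout, Sox7 lost its call without PT-2385 replicate 3, and Cldn5 kept its call only without vehicle replicates 3 or 4 (adjusted p up to 0.112).

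In the smooth muscle and podocyte lists 3 and 3 members rose. Lmod1, which seeds actin filaments in smooth muscle, measured 7.31, 6.07, 7.70 and 8.39 CPM in the vehicle libraries and 11.4, 10.9, 10.3 and 11.9 CPM in the PT-2385 libraries, with separate groups (0.59, SE 0.101, edgeR adjusted p = 0.00499), and it held throughout. Myh11, smooth muscle myosin, and Des, desmin, rose by 0.26 and 0.30 (edgeR adjusted p = 0.0298 and 0.0357), and the Myh11 groups overlapped. The median over 15 pericyte and smooth muscle markers was 0.11, and 0 fell. Of 16 podocyte markers (median 0.18) Wt1, the podocyte's transcription factor, measured 23.7, 26.1, 28.7 and 26.7 CPM in the vehicle libraries and 31.1, 31.2, 33.1 and 30.96 CPM in the PT-2385 libraries, without overlap (0.27, SE 0.0638, edgeR adjusted p = 0.025). Foxc2, another factor of these cells, and Synpo, an actin-binding protein of their foot processes, rose by 0.35 and 0.28, while Col4a3, a chain of the glomerular basement membrane that tubules also make, fell by 0.24 (edgeR adjusted p = 0.0281, 0.0392 and 0.0399). Nphs1, a defining gene of the slit diaphragm, had a log2 fold change of 0.19 and did not pass the test (edgeR adjusted p = 0.122). None of the podocyte calls was kept without PT-2385 replicate 3 or without PT-2385 replicate 4, and Myh11 and Des were lost without at least 1 of vehicle replicates 1, 2 or 4 or PT-2385 replicates 1, 2, 3 or 4 (adjusted p up to 0.147).

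**Figure D4:**
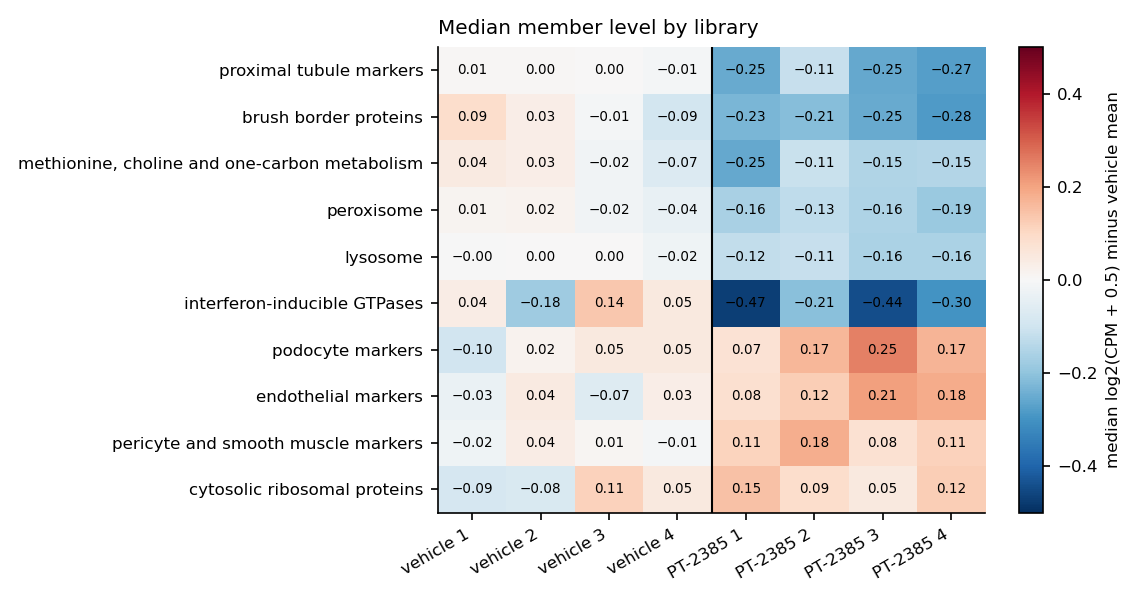
For 10 gene lists the colour and number give, in each kidney library, how far log2(CPM + 0.5) lay from the vehicle mean, as the median of all members; the line parts vehicle from PT-2385. Proximal tubule, peroxisome and lysosome lists are below 0 in all 4 PT-2385 libraries, least so in replicate 2, while podocyte, endothelial and smooth muscle lists are above the vehicle libraries; ribosomal proteins overlap between groups. The brush border, methionine, peroxisome, lysosome, GTPase and ribosomal protein lists were put together after the values had been seen.

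Stress and hormone-responsive genes rose in part. Of 21 heat shock chaperones, 5 rose and 1 fell (median 0.13). Hspb1, the small heat shock protein HSP27, measured 14.6, 17.3, 16.9 and 20.6 CPM in the vehicle libraries and 23.5, 22.8, 23.6 and 25.2 CPM in the PT-2385 libraries, with separate groups (0.46, SE 0.0859, edgeR adjusted p = 0.00841). Chordc1 (0.41), a cochaperone of HSP90, Hspb8 (0.40), Dnajb1 (0.26) and Hsf1 (0.23), the factor that drives the group, also rose, whereas Hspd1, the mitochondrial chaperonin HSP60, fell by 0.19 (edgeR adjusted p = 0.0297). Hsf1 and Dnajb1 were named after their values were seen. The list's calls numbered 1 without vehicle replicate 2, 3 without vehicle replicate 4, 2 without PT-2385 replicate 1, 1 without PT-2385 replicate 3, 2 without PT-2385 replicate 4 and 4 to 6 without each of the others. Of 18 glucocorticoid-responsive genes, 3 rose and 0 fell (median 0.10). Calls in this list numbered 1 without PT-2385 replicate 3, 1 without PT-2385 replicate 4 and 3 to 4 without each of the others. Its median distance from the vehicle mean, in log2(CPM + 0.5), was 0.32, 0.07, −0.01 and −0.17 in the PT-2385 libraries. In the vehicle libraries it was −0.03 to 0.04. Sgk1, the kinase that raises sodium channels in the distal nephron, measured 120.1, 102, 115 and 94.1 CPM in the vehicle libraries and 138, 143, 154 and 159.9 CPM in the PT-2385 libraries, without overlap (0.46, SE 0.0723, edgeR adjusted p = 0.00471). Tsc22d3, the glucocorticoid-induced protein GILZ, rose by 0.39, and Sult1a1 was the third to rise. Of 22 clock genes, Per2 rose, at 14.6, 11.95, 12.5 and 12.6 CPM in the vehicle libraries and 19.02, 14.2, 21.01 and 22.8 CPM in the PT-2385 libraries, with PT-2385 replicate 2 inside the vehicle range (0.60, edgeR adjusted p = 0.0124), and Npas2 and Rora, which belong to the arm that activates transcription, fell by 0.35 and 0.42. Hspb1 and Sgk1 held throughout; Per2 and Npas2 lost their calls without vehicle replicate 2 or PT-2385 replicate 3, and Tsc22d3, Rora, Chordc1, Hspb8 and Hspd1 without at least 1 of vehicle replicates 1, 2 or 4 or PT-2385 replicates 1, 2, 3 or 4 (adjusted p up to 0.117).

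Few markers of the other nephron segments and few injury genes were called. Of 27 markers of the thick limb, distal tubule and collecting duct, Pvalb, parvalbumin of the distal convoluted tubule, rose (0.30, edgeR adjusted p = 0.0342) and Aqp4, a water channel, fell (−0.35, edgeR adjusted p = 0.0156), with a median of 0.06. Among defining markers, mean CPM went from 1553 to 1237 for Umod and from 1796 to 1696 for Slc12a1, both of the thick limb. In the collecting duct Aqp2 went from 265 to 291 CPM and Atp6v1g3 from 68.1 to 77.3 CPM. The groups overlapped in each of these. Slc12a3 of the distal tubule went from 1062 to 1194 CPM, without overlap but not called. Of 26 tubular injury genes, 2 rose and 0 fell (median 0.052). Tnfrsf12a, the receptor of TWEAK, measured 9.75, 8.27, 9.19 and 9.34 CPM in the vehicle libraries and 12.8, 13.7, 11.5 and 12.8 CPM in the PT-2385 libraries, with separate groups (0.46, SE 0.0856, edgeR adjusted p = 0.00792), and it held throughout. Clu, clusterin, rose by 0.23 (edgeR adjusted p = 0.0323). In other lists single members rose: Ddit3, the factor CHOP, with 20.9% of its exon bases shared with other gene models, among 27 genes of protein and amino acid stress, by 0.48 (edgeR adjusted p = 0.0232), and Psca, among 9 urothelium markers, by 0.42 (edgeR adjusted p = 0.0325). Pvalb, Aqp4, Clu, Ddit3 and Psca lost their calls without at least 1 of vehicle replicates 1 or 2 or PT-2385 replicates 1, 3 or 4 (adjusted p up to 0.122). Calls among the thick limb, distal tubule and collecting duct markers numbered 0 without vehicle replicate 1, 1 without vehicle replicate 2, 6 without vehicle replicate 3, 1 without PT-2385 replicate 1, 0 without PT-2385 replicate 3, 1 without PT-2385 replicate 4 and 3 without each of the others. Those among the injury genes numbered 1 without vehicle replicate 2, 6 without vehicle replicate 4, 1 without PT-2385 replicate 1, 1 without PT-2385 replicate 3, 1 without PT-2385 replicate 4 and 2 to 3 without each of the others. Sdha, a subunit of succinate dehydrogenase, was the only call among 24 nuclear genes of oxidative phosphorylation (−0.16, edgeR adjusted p = 0.044; kept without vehicle replicate 3 only).

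No member was called by edgeR among 22 fibroblast and matrix genes (median 0.0004), 33 cell cycle genes (−0.14), 12 androgen-regulated genes (−0.07), 13 mitochondrially encoded subunits (0.089), 8 nuclear noncoding RNAs (0.12) or 74 cytosolic ribosomal proteins (0.10). Of the ribosomal proteins 67 had positive values, and 17 were called without vehicle replicate 3 and 2 without vehicle replicate 4. No member was called among the markers of blood cells outside the macrophages either, with medians of −0.083 for MHC class II and dendritic, −0.012 for lymphocyte, 0.035 for neutrophil and −0.029 for erythroid genes over 11, 9, 3 and 10 members. Adipocyte markers, of which 0 were called, had sums of 1817 to 2022 CPM in vehicle libraries and 1393 to 2156 CPM in PT-2385 libraries. Lpl, lipoprotein lipase, made up most of these sums (1650.1 ± 144 to 1401 ± 158 CPM, mean ± SD, n = 4; −0.24, edgeR adjusted p = 0.0959), while 10 of 11 members had positive values (median 0.25). The median distance of the adipocyte markers from the vehicle mean, in log2(CPM + 0.5), ran from −0.63 to 0.28 in the vehicle libraries and was 1.00, 0.63, −0.46 and −0.21 in the PT-2385 libraries. The groups overlapped, and the part of these markers in the other results was not tested. The adrenal list had 1 member above the filter. A count of 0 in these lists is not a proof of no change, since 4101 genes had an unadjusted p under 0.05 and 982 were called.

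The difference from the response of ovary was called in few genes. Over 19977 genes tested in all 16 libraries, the difference between the organs' responses was called in 38 (0.19%, edgeR quasi-likelihood test of the interaction, Benjamini-Hochberg adjusted), with 2397 at an unadjusted p under 0.05. Of the 982 genes called in kidney, 632 had the same sign in ovary. The share of equal signs over all genes tested was not computed, so the count is no measure of a shared response. Some of the 982 were near 0 in ovary, where a sign means little, such as Slc17a1 (means of 0.18 CPM with vehicle and 0 with PT-2385). Of the 38, 27 were also called in kidney, and 6 of these are described here with their values in the joint fit. Sgk1 rose in kidney by 0.45 and had a value of −0.29 in ovary (difference 0.74, edgeR adjusted p = 0.0342). Slc11a2 (−0.28 and 0.16), Pdxk (−0.53 and 0.094), Ipmk (−0.48 and 0.028), Slc20a2 (−0.42 and 0.054) and Nkain1 (−0.83 and 0.23) were lower in kidney and slightly above 0 in ovary, with edgeR adjusted p of the difference between 0.0251 and 0.0456. In the interferon response list the difference was called for Cmpk2, an interferon-induced nucleotide kinase named after its values were seen, at −0.099 in kidney and −1.05 in ovary (edgeR adjusted p = 0.0342). It was not called for the GTPase Irgm2, at −0.50 in kidney and −0.74 in ovary (edgeR adjusted p = 0.628). The number called was unstable: it was 0 without ovary PT-2385 replicate 3 and 813 without ovary vehicle replicate 3, and fell to 9 or fewer without ovary vehicle replicate 1, ovary PT-2385 replicates 1 or 2, kidney vehicle replicates 2 or 3, or kidney PT-2385 replicates 1, 3 or 4. Without kidney vehicle replicates 1 and 4 it was 16 and 20. The 6 genes kept their calls in 5 to 13 of 20 alternative fits.

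**Figure D5:**
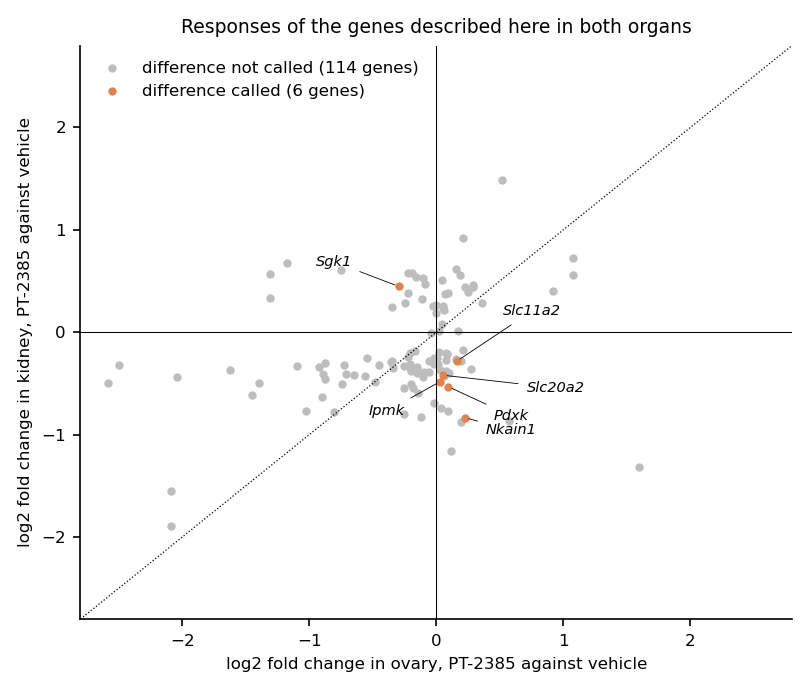
Of 120 genes described here, the log2 fold changes within the axis range are shown in kidney against ovary, with equal responses on the dotted line. Genes such as Slc5a1 (−3.07 in ovary), Cyp4a31 (−5.13), Slc17a1 (−5.32) and Cyp2j5 (−6.80) fall outside the axes. These 4 stood at 0.113 to 0.51 CPM in vehicle ovary. Orange marks the 6 of the 120 genes whose difference was called. Cmpk2 is not among the 120. The 6 orange genes have opposite signs in the organs, 5 below 0 in kidney and Sgk1 above.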

How the data were processed

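The authors deposited read-pair counts per gene, 1 file per library. Per the file headers the counts were made with featureCounts 2.0.6 on exons of the basic GENCODE vM27 annotation, summed by gene, and no strand option was recorded. FastQC, STAR and the build GRCm39 are named in the submitters' processing notes, and the versions of both tools are not given in the sources used here. Because the kit keeps strand and the counting did not use it, reads from overlapping genes on opposite strands cannot be told apart, and near-identical gene copies are uncertain.

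From the deposited counts, 17763 of 55359 identifiers passed the expression filter of edgeR 4.0.16 (filterByExpr, minimum count 10), libraries were scaled by TMM, and the robust quasi-likelihood test was fitted to the 8 kidney libraries alone in R 4.3.3, with 6 residual degrees of freedom. Benjamini-Hochberg adjustment ran over all genes tested at a threshold of 0.05. Differences between organs used an interaction over 16 libraries. Epo, below the filter, had an exact permutation test. Symbols came from the GENCODE M21 and RefSeq tables for 94.1% of identifiers, and promoters from RefSeq (GRCm38.p6). The members and gene lists were chosen with earlier results of these data known; 38 lists were written from the labels' tissue and treatment and 8 were added after the values had been seen. Named genes were first the 12 largest rises, the 12 largest falls and the 10 smallest p. These were taken among called genes with a proper symbol, no overlap and at least 2 CPM in the higher group. Each list with a called member added up to 4 members of smallest p, and each other list up to 2, whether called or not. Epas1, Hif1a, Arnt, Vegfa and Epo were always included. Alternatives were DESeq2 1.42.0, limma 3.58.1 voom, other scaling, other filters, a replicate block and leaving out libraries. No duplicated libraries were found. A few genes of the lists are not reported here. The fitting steps were tested on simulated data.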

Additional observations from a re-analysis of the deposited data

Results flagged for a closer look

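In 8 of 248 groups of 4 libraries examined, 1 library lay beyond Dixon's 95% limit for a single distant value, and chance flags about 1 in 20 groups. Vehicle replicate 1 was high for Chst7 (6.44 CPM, others 4.33 to 4.51) and Treh (88.7 CPM, others 73.7 to 75.6) and low for Psca (13.4 CPM, others 19.0 to 19.3). With PT-2385, replicate 1 was high for Chst7 (3.11 CPM), replicate 3 was high for A4gnt (9.37 CPM, others 7.74 to 7.97) and Wt1 (33.1 CPM, others 31.0 to 31.2), and replicate 4 was low for Gm2a (319 CPM, the others at about 334). In depth, vehicle replicate 3 was the low library of its group, at 23.3 M read pairs.

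For 6 of the genes described and called in kidney the response of kidney differed from that of ovary by the edgeR interaction test. The kidney minus ovary difference in log2 fold change was −0.625 for Pdxk, −0.511 for Ipmk, −0.443 for Slc11a2, −0.473 for Slc20a2, −1.06 for Nkain1 and 0.742 for Sgk1. Cmpk2, not called in kidney and named after its values were seen, also had a called difference, of 0.948.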

How the results depend on the processing

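All 982 genes called by edgeR kept their direction under each alternative in which they were tested. The count was 959 with median-ratio scaling, 1105 with limma voom, 1035 with a filter of 1 CPM in 4 libraries and 979 without mitochondrial and haemoglobin genes. DESeq2 called 1468 (519 higher, 949 lower). With no filter 1761 were called (712 higher, 1049 lower), and without both PT-2385 replicates 2 and 3, an alternative chosen after seeing the data, 211 (56 higher, 155 lower). Leaving out 1 library gave 240 to 1370 calls, 50 to 550 higher and 190 to 820 lower. With a replicate block 1274 genes were called; same-numbered libraries of the groups correlated between −0.064 and 0.052 in their deviations from the group means, so the numbers do not pair them. The organ difference was called in 20 genes with median-ratio scaling, 167 with no filter and 0 to 813 with 1 library left out. The Epo difference was 0.22 to 0.406 CPM with 1 library left out. The exact permutation p was 0.0571 to 0.0857, except without PT-2385 replicate 2. There it was 0.0286, a value fixed by leaving out the PT-2385 library inside the vehicle range. Genes near 0 changed sign: with 1 library left out Hif1a ranged from −0.003342 to 0.06338, Arnt from −0.003497 to 0.05068 and Epas1 from −0.009922 to 0.04304. The negative values were those of Hif1a and Arnt without vehicle replicate 3 and of Epas1 without vehicle replicate 1 or PT-2385 replicate 3 (−0.002368). Without PT-2385 replicates 2 and 3 Arnt was at −0.006547 and Epas1 at −0.02494. The cause was not tested. Of 114 called genes recomputed under each alternative, 37 kept their call in every alternative that gave them an adjusted p. These alternatives go beyond the 8 fits by which a call is said above to hold throughout. Some genes that held in those 8 fits, such as Ahcy and Gsr, lost their call in 1 of the 16 alternatives. Depth limits rare transcripts such as Epo, which rested on 0 to 19 counts in a library.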
